A study of Homo sapiens with 6 samples.

Results

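The FOS and JUN families and the early response genes EGR1, IER2 and IER3 were examined in M5 cells and in the SW480 cells they came from. The 10 genes FOS, FOSB, FOSL1, FOSL2, JUN, JUNB, JUND, EGR1, IER2 and IER3 were chosen by family and function, and all probe sets whose only symbol in the platform annotation is one of them were taken. That gave 22 probe sets of the 54613 that are not array controls, and 10 genes of 19775 with such a symbol. SW480 is an established human line of colorectal cancer. M5 was derived from it in live animals by selecting cells with a higher capacity for liver metastasis. Per the labels, both were grown in RPMI 1640 with 10% fetal bovine serum and antibiotics, no other agent or genetic change is named, and each has 3 arrays described as biological replicates. The labels name no clone and do not say whether the replicates were separate cultures, so p-values measure the spread between these arrays, which may be technical.

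AP-1 is a dimeric transcription factor. A JUN protein pairs with another JUN or with a FOS protein through a leucine zipper, and the pair binds a short DNA element in the promoters of genes for growth, proteases and stress responses. FOS, JUN, EGR1 and the IER genes are immediate early genes: serum, growth factors or stress switch them on within minutes through MAP kinases, serum response factor (SRF) and CREB, and their transcripts are short-lived. In colorectal cancer cells, the RAS and Wnt pathways are known to feed into AP-1.

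The promoters of EGR1, JUND, FOS and JUN are shown as examples from the members, and the elements they held differed. RefSeq promoter sequences (GRCh38.p14) matched 8 of the 10 members, and FOSL1 and IER3 were not among them. Shown are the 250 bases before the annotated start, on the strand of the gene, from chr5:138465229-138465478 (+ strand) for EGR1, chr19:18281623-18281872 (- strand) for JUND, chr14:75278578-75278827 (+ strand) for FOS and chr1:58784048-58784297 (- strand) for JUN. Capitals mark matches on either strand to the CArG box, which SRF binds, to the AP-1 element TGANTCA, to its 8-base form TGACNTCA and to the CREB core TGACGT. The full CREB element matches the last 2 patterns at once and, being a palindrome, the core on both strands.
EGR1: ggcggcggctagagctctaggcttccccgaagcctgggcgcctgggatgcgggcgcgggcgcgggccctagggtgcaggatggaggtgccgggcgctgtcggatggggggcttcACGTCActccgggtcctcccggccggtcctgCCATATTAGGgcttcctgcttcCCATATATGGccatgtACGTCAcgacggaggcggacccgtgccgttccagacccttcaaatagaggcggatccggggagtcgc
JUND: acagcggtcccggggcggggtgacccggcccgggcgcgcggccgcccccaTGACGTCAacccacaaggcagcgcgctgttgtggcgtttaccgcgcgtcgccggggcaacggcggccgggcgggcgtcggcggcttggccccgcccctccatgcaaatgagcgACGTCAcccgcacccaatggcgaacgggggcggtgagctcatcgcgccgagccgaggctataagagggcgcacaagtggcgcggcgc
FOS: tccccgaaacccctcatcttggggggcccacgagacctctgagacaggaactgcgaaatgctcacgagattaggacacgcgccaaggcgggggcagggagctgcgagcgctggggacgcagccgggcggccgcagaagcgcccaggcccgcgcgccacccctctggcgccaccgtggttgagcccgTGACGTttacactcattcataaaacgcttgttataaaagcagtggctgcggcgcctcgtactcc
JUN: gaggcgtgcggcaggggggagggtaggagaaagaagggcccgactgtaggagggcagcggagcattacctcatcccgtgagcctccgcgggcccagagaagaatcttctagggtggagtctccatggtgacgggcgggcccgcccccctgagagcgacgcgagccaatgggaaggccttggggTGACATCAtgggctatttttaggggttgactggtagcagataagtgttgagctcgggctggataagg

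EGR1 held 2 CArG boxes, with first bases 105 and 83 bases before the start, and 2 CREB cores, at 136 and 67 bases. None of the other 7 members with a sequence held a CArG box in this window, which 1.16% of 35116 promoters did. Bases further upstream were not searched, so a CArG box there would be missed. The CREB core was found in 5 of 8 members (FOS, FOSB, FOSL2, JUND and EGR1) and in 7.10% of all promoters. JUND held 3 core matches, of which 2 are both strands of 1 full CREB element 200 bases before the start. JUN held the 8-base form TGACNTCA once, 67 bases before the start. That form occurred in 2 of 8 members and 6.87% of all promoters. TGANTCA was found in 0 of 8 and 6.57%. These are matches of letters, not measured binding sites.

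The arrays differed in brightness, so levels are given after quantile normalisation unless called deposited. The trimmed mean signals (2% cut at each end) were 27.0, 65.3 and 67.1 on M5 replicates 1, 2 and 3, against 20.9, 53.4 and 86.4 on SW480 replicates 1, 2 and 3. The replicate 1 arrays are called the dimmer pair and the other 4 the brighter arrays. M5 replicates 2 and 3 stood apart from all other pairs on bright probe sets. On the 5462 brightest they correlated at r = 0.994, against 0.894 to 0.958 for the other pairs. Over all kept probe sets they did not stand apart: their r was 0.943, against 0.944 between SW480 replicates 2 and 3. Over the 9 tested members the median absolute log2 difference between them was 0.13, against 0.40 to 0.98 for the other pairs. Means and SDs therefore treat this pair as a single sample, so that n = 2 in M5. The control probe sets for 18S ribosomal RNA gave another split, with signals of 1032.8, 198.3 and 237.1 on the M5 arrays and 1567.6, 1010.1 and 96.3 on the SW480 arrays, in replicate order. The 3′ to 5′ signal ratio of the GAPDH control, a measure of RNA integrity, was 1.03 to 1.08 on M5 arrays and 1.04 to 1.15 on SW480 arrays. That of ACTB was 1.92 to 2.19 on M5 arrays and 1.64 to 2.11 on SW480 arrays. In bulk RNA, fewer cells with a transcript and less of it per cell cannot be told apart.

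IER3 and EGR1 had the smallest p-values of the members, with every M5 array below every SW480 array, and JUND had the smallest among members with a positive fold change. None of the 9 tested members passed the threshold over all genes in limma's moderated test (adjusted p under 0.05): 0 were called higher and 0 lower, where 0.0702% of all 14243 genes were called higher and 0.0632% lower. At an unadjusted p under 0.05, 3 of 9 passed (IER3, EGR1 and JUND), against 11.5% of all genes. The 9 members had a median log2 fold change (M5 over SW480) of -0.02, against -0.01 over all genes, with 4 positive and 5 negative. The tenth member, FOSB, and 1 probe set each of FOSL2 and JUND lay among the 40% of probe sets with the lowest signal and were not tested.

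**Figure D1:**
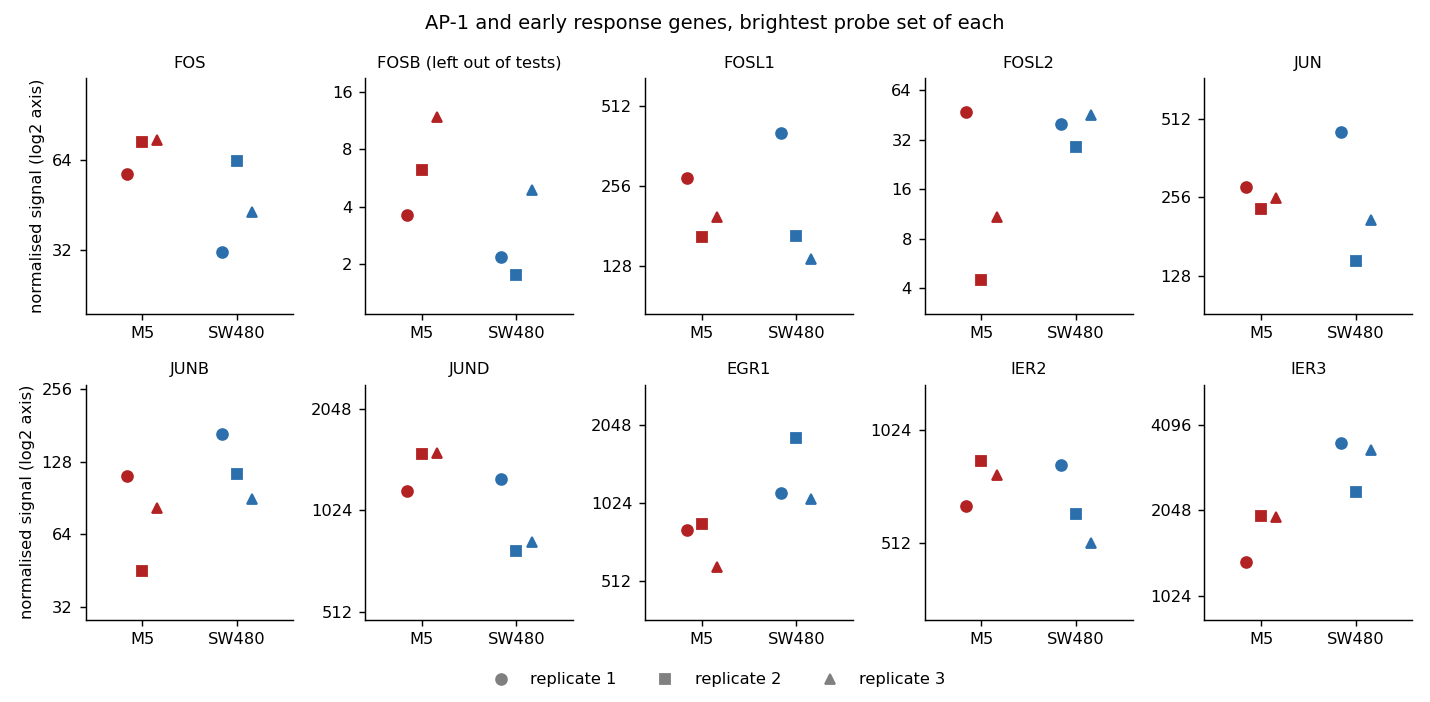
Normalised signal of the brightest probe set of each gene on each array, on a log2 axis that differs by panel, with M5 in red at the left and SW480 in blue at the right, and 1 symbol shape per replicate. For EGR1 and IER3 all 3 M5 arrays lie below all 3 SW480 arrays, while the groups overlap for the other 8 genes.

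IER3, an early response gene whose product limits apoptosis in many cell types, had normalised signals of 1350.1, 1959 and 1935 on M5 replicates 1, 2 and 3, against 3553, 2375 and 3358 on SW480 replicates 1, 2 and 3. Every M5 array was below every SW480 array. The mean was 1649 ± 422 (SD, n = 2) in M5 and 3095 ± 631 (SD, n = 3) in SW480. The log2 fold change was -0.82 (SE 0.20, 95% confidence interval -1.25 to -0.39), with an unadjusted limma p of 0.00146 and an adjusted p of 0.184 over all genes. It ranked 111 by p among all genes tested. The difference had the same direction within each set of arrays: -1.39 on the dimmer pair and -0.54 on the brighter arrays, -1.10 among arrays of high and -0.79 among those of low 18S control. With M5 replicates 2 and 3 averaged the log2 fold change was -0.91 (limma adjusted p = 0.483).

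EGR1 encodes a zinc finger transcription factor and is a known target of SRF in the early response. Its brightest probe set had normalised signals of 802, 847 and 581 on M5 replicates 1, 2 and 3, against 1119, 1824 and 1058 on SW480 replicates 1, 2 and 3. The groups did not overlap, and SW480 replicate 2 was the highest array. The mean was 758 ± 62 (SD, n = 2) in M5 and 1334 ± 426 (SD, n = 3) in SW480. The log2 fold change was -0.82 (SE 0.23, 95% confidence interval -1.32 to -0.31, limma unadjusted p = 0.00463, adjusted p = 0.258). It was -0.48 on the dimmer pair and -0.98 on the brighter arrays. With M5 replicates 2 and 3 averaged the log2 fold change was -0.78 (limma adjusted p = 0.777).

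The other EGR1 probe sets pointed the same way. Probe set 201694_s_at had 392, 354 and 368 on M5 arrays, against 842, 758 and 401 on SW480 arrays, again without overlap (log2 fold change -0.77, SE 0.26, limma adjusted p over probe sets 0.383). Probe set 201693_s_at had 84.2, 69.5 and 96.2 on M5 arrays, against 121, 95.2 and 115 on SW480 arrays, where M5 replicate 3 lay just above SW480 replicate 2 (log2 fold change -0.41, SE 0.26). With the IER3 probe set, 3 of the 19 tested member probe sets had groups that did not overlap, all with M5 below. That happened for 15.1% of all tested probe sets in either direction, and per gene for 2 of 9 members against 16.1% of genes.

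IER2, which encodes a small nuclear early response protein, had overlapping groups. The array signals were 643, 848 and 781 on M5 replicates 1, 2 and 3, against 827, 613 and 512 on SW480 replicates 1, 2 and 3. The dimmer pair ran opposite to the other arrays (-0.36 on the dimmer pair, 0.54 on the brighter arrays). In limma the log2 fold change was 0.24 (SE 0.21, 95% confidence interval -0.22 to 0.69, limma adjusted p = 0.71).

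Before normalisation the groups overlapped for all 19 tested probe sets. For IER3 the deposited signals were 654.6, 2640.6 and 2690.0 on M5 replicates 1, 2 and 3, against 1396.4, 2047.3 and 4974.6 on SW480 replicates 1, 2 and 3. For EGR1 they were 378.1, 1099.1 and 770.6 on M5 arrays, against 399.0, 1604.6 and 1689.2 on SW480 arrays. For both genes the replicate 1 array, the dimmest of its population, also had the lowest signal. Without scaling between arrays the log2 fold changes were -0.54 for IER3 and -0.58 for EGR1, and with arrays centred on the median they were -0.65 for IER3 and -0.70 for EGR1.

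**Figure D2:**
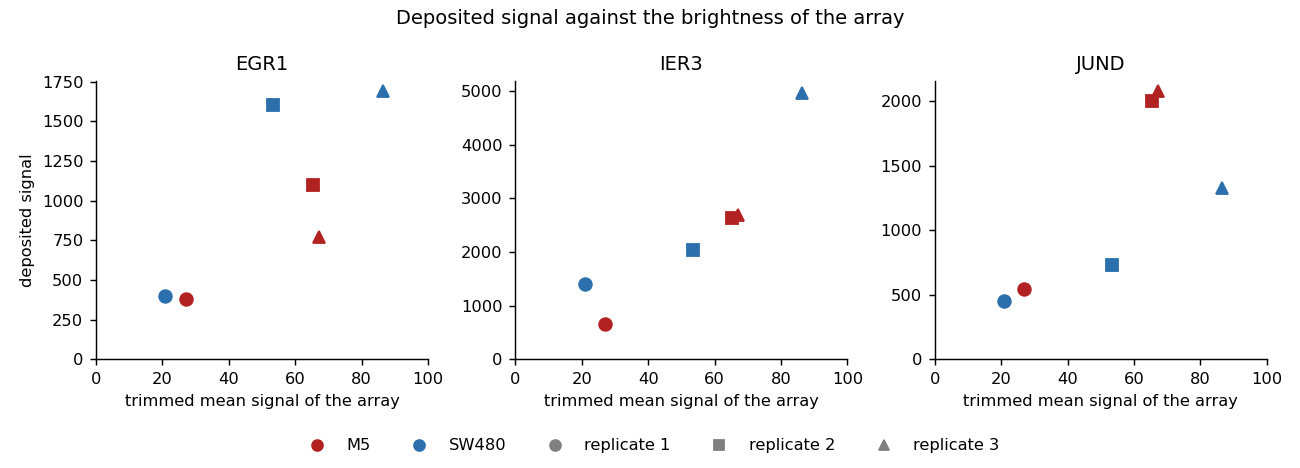
Deposited signal of EGR1, IER3 and JUND (vertical, linear axes from 0) against the 2% trimmed mean signal of each array (horizontal), with M5 in red and SW480 in blue and 1 symbol shape per replicate. The dimmer pair lies at the lower left in each panel, and on the other 4 arrays M5 lies below SW480 for EGR1 and above it for JUND.

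Among the JUN family, the sign of the JUND difference depended on the arrays. JUND, the JUN protein gene that most cells express without a stimulus, had 1171, 1509 and 1515 on M5 replicates 1, 2 and 3, against 1273, 775 and 823 on SW480 replicates 1, 2 and 3. The groups overlapped through SW480 replicate 1. In limma the log2 fold change was 0.57 (SE 0.21, 95% confidence interval 0.12 to 1.03, limma unadjusted p = 0.0186, adjusted p = 0.352). It was 0.92 on the brighter arrays and -0.12 on the dimmer pair. With M5 replicates 2 and 3 averaged it was 0.51, with an interval that included 0 (-0.05 to 1.07, limma adjusted p = 0.849). The other tested JUND probe sets had positive values too, 0.77 (SE 0.41) for 203751_x_at and 0.23 (SE 0.36) for 214326_x_at. Their suffix marks probes that can also bind other transcripts.

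JUN, a founding member of AP-1 and a strong activator, was not called. Its brightest probe set had 280.0, 232 and 255 on M5 replicates 1, 2 and 3, against 459, 147 and 210 on SW480 replicates 1, 2 and 3. The M5 arrays lay inside the range of the SW480 arrays. M5 over SW480, the log2 fold change was 0.08 (SE 0.35, 95% confidence interval -0.69 to 0.84, limma adjusted p = 0.957). The other 3 JUN probe sets had log2 fold changes of 0.15, 0.26 and 0.51, all with overlapping groups. The first of the 4 probe sets has the suffix for possible cross-binding, so its level is uncertain. Its sign turned to -0.29 without SW480 replicate 2 and to -0.03 without SW480 replicate 3.

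JUNB, which antagonises JUN at many promoters, leaned the other way. It had 112, 45.3 and 82.3 on M5 replicates 1, 2 and 3, against 167, 114 and 89.8 on SW480 replicates 1, 2 and 3. M5 replicate 1 lay above SW480 replicate 3, so the groups overlapped. M5 over SW480, the log2 fold change was -0.66 (SE 0.36, 95% confidence interval -1.46 to 0.13, limma adjusted p = 0.508), with -0.57 on the dimmer pair and -0.71 on the brighter arrays. M5 replicates 2 and 3, near-identical over most bright probe sets, differed clearly here.

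The FOS family gave no called gene either. FOS, the short-lived partner of JUN after serum or stress, had 57.6, 73.4 and 74.4 on M5 replicates 1, 2 and 3, against 31.6, 63.4 and 43.1 on SW480 replicates 1, 2 and 3. Only SW480 replicate 2 reached into the M5 range. The mean was 65.7 ± 11.5 (SD, n = 2) in M5 and 46.0 ± 16.1 (SD, n = 3) in SW480. The log2 fold change was 0.60 (SE 0.33, 95% confidence interval -0.11 to 1.32, limma adjusted p = 0.508), positive on the dimmer pair (0.83) and on the brighter arrays (0.49).

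FOSL1 encodes FRA1, a FOS protein without the transactivation domain of FOS that is often raised in invasive carcinoma cells. FOSL1 had 273, 165 and 196 on M5 replicates 1, 2 and 3, against 405, 167 and 136 on SW480 replicates 1, 2 and 3. Within both populations replicate 1 was highest, and the populations overlapped fully. The log2 fold change was -0.02 (SE 0.37, 95% confidence interval -0.84 to 0.79, limma adjusted p = 0.986). Its sign depended on the processing: 9 of 22 alternatives gave a positive and 13 a negative value, including 0.05 without scaling between arrays.

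FOSL2, the gene of FRA2, could not be read as 1 value, because its probe sets disagreed. Probe set 228188_at had 46.9, 4.50 and 10.9 on M5 replicates 1, 2 and 3, against 39.97, 28.8 and 45.01 on SW480 replicates 1, 2 and 3. Replicates 2 and 3 of M5 were low, and replicate 1 was the highest of all arrays. Its log2 fold change was -1.32 (SE 0.64, limma adjusted p = 0.458 over genes). Probe set 225262_at had 15.7, 23.1 and 15.9 on M5 arrays, against 41.3, 26.9 and 20.8 on SW480 arrays (log2 fold change -0.62, SE 0.40). Probe set 205409_at had 40.6, 10.1 and 20.1 on M5 arrays, against 13.2, 16.0 and 16.4 on SW480 arrays, and leaned the other way (0.40, SE 0.50). The last tested one, 218880_at, had a value of -0.11 (SE 0.59).

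FOSB had normalised signals of 3.62, 6.27 and 11.8 on M5 replicates 1, 2 and 3, against 2.18, 1.77 and 4.93 on SW480 replicates 1, 2 and 3. These signals lie below the filter, and the groups overlap, so no fold is given. The table holds no detection calls, so whether FOSB lay above background is not known here.

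**Figure D3:**
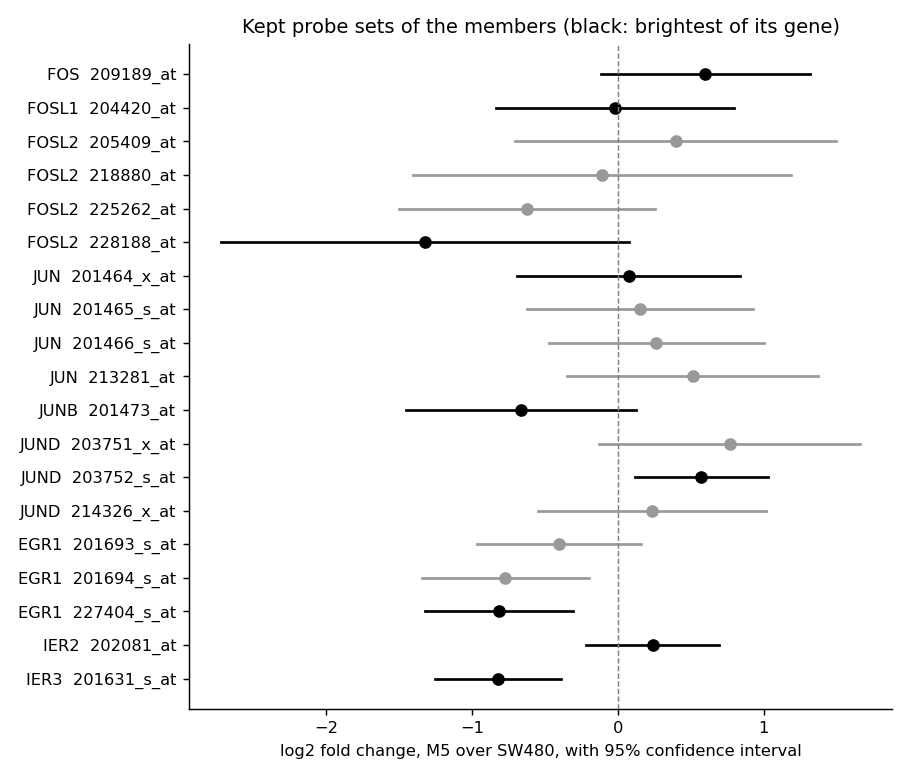
Log2 fold change, M5 over SW480, with its 95% confidence interval (horizontal) for the 19 tested probe sets of the members, the brightest of each gene in black and the others in grey. The intervals of IER3, of 2 EGR1 probe sets and of 1 JUND probe set leave out 0 before adjustment over all features, and the FOSL2 probe sets lie on both sides of 0.

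The members split by how the dimmer pair and the brighter arrays related. FOS, JUNB, EGR1 and IER3 had the same sign in both sets. FOSL1, JUN, JUND and IER2 were negative on the dimmer pair and positive on the brighter arrays, and FOSL2 ran the reverse way. The share with equal sign was 4 of 9 (44.4%), near the 50.6% of all genes. With the dimmer pair left out, limma called JUND higher (log2 fold change 0.91, SE 0.12, adjusted p = 0.00331) and EGR1 lower (-0.98, SE 0.26, adjusted p = 0.0427). In that fit 5.06% of all genes were called higher and 6.29% lower. When the near-identical M5 arrays were also averaged, which was chosen after the data were seen, limma's adjusted p was 0.12 for JUND and 0.173 for EGR1. Over the 22 alternatives the adjusted p ranged between 0.00331 and 0.9999 for JUND, between 0.0251 and 0.9999 for EGR1 and between 0.0222 and 0.9999 for IER3. A fit with array weights called JUND higher and FOSL2, EGR1 and IER3 lower, beside 3.81% of all genes higher and 4.98% lower.

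**Figure D4:**
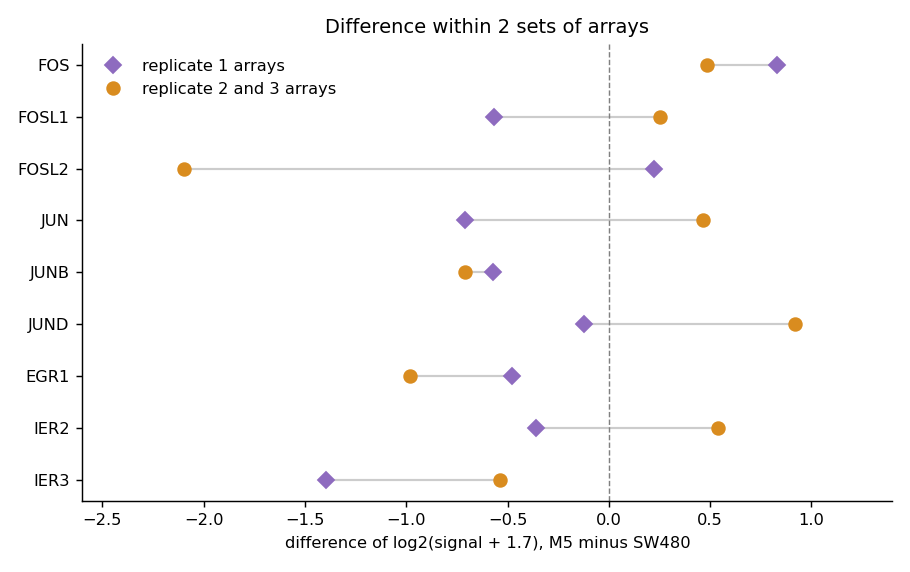
Difference of log2(signal + 1.7), M5 minus SW480, for the 9 tested genes within the replicate 1 arrays (1 against 1, purple diamonds) and within the replicate 2 and 3 arrays (2 against 2, orange circles). FOS, JUNB, EGR1 and IER3 lie on 1 side of 0 in both sets, and FOSL2 differs most between them (0.22 and -2.10).

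Of the proteins that pair with FOS and JUN or share their sites, ATF3 was called higher in M5, but not in most alternatives. ATF3, a stress-induced gene of the ATF family, had 249, 361 and 380.3 on M5 replicates 1, 2 and 3, against 129, 104 and 116 on SW480 replicates 1, 2 and 3. After normalisation all M5 arrays lay well above all SW480 arrays. The deposited signals overlapped, with 121.9 on M5 replicate 1 and 195.4 on SW480 replicate 3. The log2 fold change was 1.47 (SE 0.24, limma adjusted p = 0.0466 over genes), with 0.94 on the dimmer pair and 1.74 on the brighter arrays. It passed in 9 of 22 alternatives, with adjusted p between 0.000524 and 0.9999. The adjusted p was 0.0678 over probe sets and 0.334 with M5 replicates 2 and 3 averaged. The call was also lost without SW480 replicate 2 (adjusted p = 0.25), SW480 replicate 3 (0.209), M5 replicate 2 (0.363) or M5 replicate 3 (0.333), and with the 18S control as a block (0.0716). As a mean over ATF3 probe sets the log2 fold change was 1.01 (limma adjusted p = 0.344). Other settings that lost the call were no scaling, median centring, the smaller pseudocount, the filter of 60%, the replicate block and no intensity trend. Of 9 tested AP-1 partners, 1 was called higher and 0 lower (0.0702% and 0.0632% of all genes). The median log2 fold change of these partners was -0.04. With the dimmer pair left out, 3 were called higher and 0 lower (5.06% and 6.29% of all genes). ATF7 had 1.15 (SE 0.37, limma adjusted p = 0.307), MAFF, a small MAF protein gene, 0.73 (SE 0.33, adjusted p = 0.427) and MAFG -0.44 (SE 0.48, adjusted p = 0.775).

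Among 25 tested genes of a further list of immediate early genes, 0 were called in either direction, with 5 higher and 4 lower at an unadjusted limma p under 0.05 and a median log2 fold change of 0.23. For all genes the share at that unadjusted p was 11.5%. With the dimmer pair left out, limma called 9 genes of this list higher and 3 lower. In that fit 5.06% of all genes were called higher and 6.29% lower. The groups did not overlap for 5 genes with M5 above and 3 with M5 below, where 16.1% of all genes did not overlap. KLF2, a Krüppel-like transcription factor gene, had 694, 673 and 763 on M5 replicates 1, 2 and 3, against 373, 174 and 218 on SW480 replicates 1, 2 and 3. It lay just outside the threshold (log2 fold change 1.54, SE 0.26, limma adjusted p = 0.0502). KLF2 passed in 10 of 22 alternatives, but its limma adjusted p was 0.315 with M5 replicates 2 and 3 averaged and 0.254 without SW480 replicate 2. CCN2, a matrix protein gene, had 2.07 (SE 0.37, adjusted p = 0.0778). It passed in 6 of 22 alternatives and had a limma adjusted p of 0.425 with the same averaging. MCL1, an anti-apoptotic gene, had -0.74 (SE 0.18, adjusted p = 0.211). The 5 genes with M5 above were KLF2, CCN2, EGR4, DUSP1 and RHOB, and the 3 with M5 below were MCL1, NR4A2 and EGR3.

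Upstream of the members, 0 of 10 SRF and EGR1 cofactors and 0 of 14 MAP kinase genes were called, with median log2 fold changes of 0.10 and 0.03. With the dimmer pair left out, 1 cofactor was called higher and 2 lower, and 1 MAP kinase gene higher and 1 lower. The shares of all genes were 5.06% higher and 6.29% lower. Over all 6 arrays the groups did not overlap for 1 cofactor with M5 above (FHL2) and 1 with M5 below (CREB1). The same held for 1 MAP kinase gene above (MAP2K6) and 1 below (MAP2K4), where 16.1% of all genes did not overlap. CREB1, whose protein binds the CREB element, had -0.91 (SE 0.31, limma adjusted p = 0.325). The SRF coactivator gene MRTFB had -0.71 (SE 0.28, adjusted p = 0.391), and FHL2, which encodes a LIM domain cofactor, 0.69 (SE 0.25, adjusted p = 0.351). Of the kinase genes, MAPK3, which encodes ERK1, had 0.60 (SE 0.33, adjusted p = 0.527), MAP2K4, a kinase of the JNK branch, -0.51 (SE 0.27, adjusted p = 0.503) and RPS6KA3, which encodes a kinase below ERK, -0.74 (SE 0.31, adjusted p = 0.403).

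Downstream, 0 of 13 tested AP-1 target genes were called, and 0 had an unadjusted limma p under 0.05, with a median log2 fold change of -0.22. With the dimmer pair left out, 2 were called higher and 1 lower (5.06% and 6.29% of all genes). MMP1, MMP3, MMP10, MMP13 and IL11 were left out for low signal. PLAU, the urokinase gene, had 0.73 (SE 0.38, adjusted p = 0.493), TIMP1, an inhibitor of matrix proteases, -0.33 (SE 0.16, adjusted p = 0.464) and CD44, an adhesion receptor gene, -0.34 (SE 0.19, adjusted p = 0.514).

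**Figure D5:**
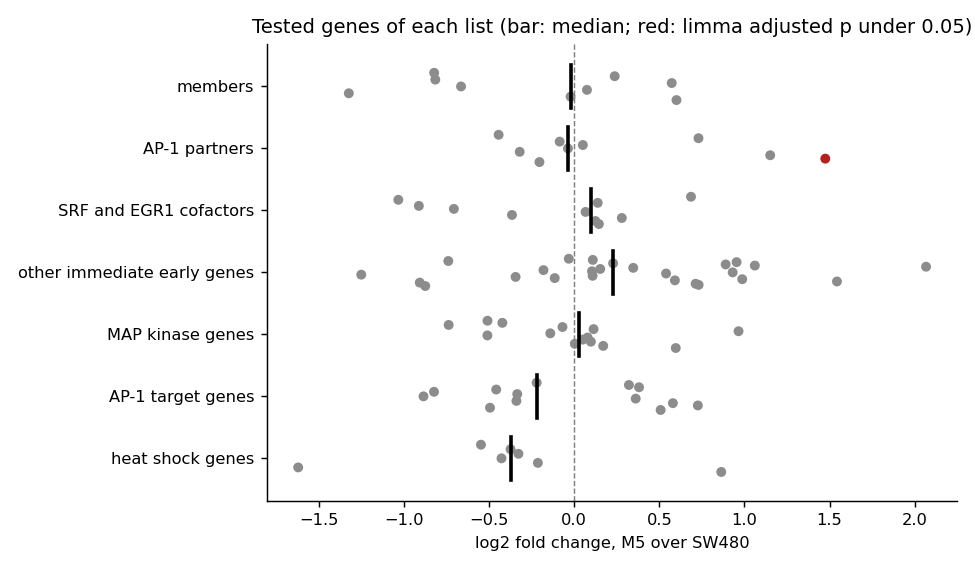
Log2 fold change, M5 over SW480, of each tested gene of the members and of 6 related lists, with the list's median as a bar and genes at a limma adjusted p under 0.05 in red. The medians lie between -0.37 (heat shock genes) and 0.23 (other immediate early genes), and ATF3 is the only red point.

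Immediate early genes also answer handling of the cells, and heat shock genes were set beside them. Of 7 tested heat shock genes 0 were called, 6 had a negative log2 fold change and the median was -0.37. At an unadjusted limma p under 0.05, 1 was higher and 3 were lower, against 11.5% of all genes. With the dimmer pair left out, 1 was called higher and 4 lower (5.06% and 6.29% of all genes). Their summed signal was 18256 to 24084 on M5 arrays and 23287 to 24991 on SW480 arrays. HSPH1 had 1110.1, 213 and 180.1 on M5 replicates 1, 2 and 3, against 1304, 1111 and 868 on SW480 replicates 1, 2 and 3, so 2 M5 arrays stood apart. Its log2 fold change was -1.62 (SE 0.53, limma adjusted p = 0.321), and -2.33 (adjusted p = 0.00038) with the dimmer pair left out. The latter fit counts the near-identical M5 replicates 2 and 3 separately. In the fit of all arrays with these 2 averaged, HSPH1 had -1.21 (limma adjusted p = 0.84). The log2 value of HSPB1 was 0.86 (SE 0.21, limma adjusted p = 0.191) and HSPD1 -0.33 (SE 0.14, adjusted p = 0.4). The part of handling in the members' differences was not tested.

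The epithelial markers EPCAM, KRT8, KRT18, KRT19 and CDH1 were bright in both populations, while the intestinal markers CDH17, CDX1 and CDX2 fell below the filter. The other listed markers were tested but low over the 6 arrays: KRT20 (23.7 to 57.5), VIL1 (6.17 to 17.0) and CEACAM5 (3.65 to 14.4). Summed signals of 11 epithelial markers were 11354 to 12323 on M5 arrays and 9121 to 13017 on SW480 arrays. Summed markers were 185 to 250.03 on M5 and 241 to 374 on SW480 arrays for fibroblasts, 84.7 to 193 and 30.9 to 117 for leukocytes, 22.4 to 35.9 and 15 to 38.0 for endothelium, and 81.5 to 362 and 95.4 to 297 for hepatocytes. None of the 23 tested markers in these 5 lists was called in limma over all 6 arrays. Some markers stood apart, and those named here were chosen after their values were seen. TTR, a hepatocyte marker, had 195.7, 73.1 and 5.68 on M5 replicates 1, 2 and 3, against 5.17, 1.67 and 1.43 on SW480 replicates 1, 2 and 3 (log2 fold change 3.52, SE 0.97, limma adjusted p = 0.249). LYZ, a leukocyte marker, had 63.9, 147 and 161 on M5 arrays, against 73.5, 1.22 and 23.5 on SW480 arrays (2.72, SE 0.91, adjusted p = 0.324). The fibroblast marker COL3A1 had 81.2, 66.5 and 44.96 on M5 arrays, against 223, 104 and 168 on SW480 arrays (-1.31, SE 0.33, adjusted p = 0.225). The TTR and COL3A1 groups did not overlap, and the LYZ groups did. The groups also did not overlap for CEACAM5, with M5 above, and for KRT20, with M5 below. Of all genes tested, 16.1% had groups that did not overlap. With the dimmer pair left out, limma called LYZ (adjusted p = 0.0172) and KRT19 (0.005) higher and COL3A1 (0.0295) lower. In that fit 5.06% of all genes were called higher and 6.29% lower. With all arrays and M5 replicates 2 and 3 averaged, limma's adjusted p was 0.84 for LYZ, 0.842 for KRT19 and 0.707 for COL3A1. The part of these markers in the members' values was not tested.

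Genes whose pattern over the 6 arrays was most like that of 4 members were found by the root mean square difference of centred log2 values. The nearest to EGR1 were EML6 (0.11), LRRC8C (0.13) and LENG8 (0.14), where the median over all genes was 0.65. The nearest to IER3 were NIPAL2 (0.11), AKR1C2 (0.13) and CHD6 (0.16), against a median of 0.62. FOS was nearest to ENPEP (0.06), PMS2P1 (0.10) and ZRANB1 (0.11), and JUN to OSTF1 (0.08), APOE (0.10) and RBPMS (0.11). None of the 3 nearest genes of these 4 members was another member.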

How the data were processed

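Total RNA of M5 and SW480 cells (3 arrays each) was measured on an Affymetrix platform (Human Genome U133 Plus 2.0). The authors deposited 1 linear intensity per probe set, made with GCOS 1.4 per the submitters' processing notes. Its settings, not given in the sources used here, are unknown. The 62 control probe sets were left out. Arrays were quantile normalised and log2(signal + 1.7) was taken, 1.7 being the 20th percentile of all values. Fold changes on this scale understate differences of low genes. Dropping the dimmest 40% by mean left 32768 probe sets.

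M5 was compared with SW480 in limma 3.58.1 (R 4.3.3, lmFit and eBayes with trend, two-sided). Each gene took the value of its brightest remaining probe set that has a single symbol, and p-values were adjusted over all genes (Benjamini-Hochberg, threshold 0.05). Precision is limited by the number of arrays. The scripts were tested on simulated data. Figures were drawn with matplotlib 3.10.9.

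The members and lists were chosen with earlier results of these data known. All members were named. Of the 6 lists of related genes, those past the threshold and the 3 others with the smallest p were named. Other named genes were chosen after their values were seen. Some genes of the lists are not reported here. Promoter motifs were searched in the first 250 bases of each RefSeq entry. Alternatives changed the scaling, pseudocount (0.425 and 6.8), filter (none and 60%), variance model, weights, probe set per gene, blocks and arrays used.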

Additional observations from a re-analysis of the deposited data

How the results depend on the processing

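Over all 6 arrays 0 members were called higher and 0 lower, beside 10 genes higher and 9 lower. The alternatives that changed the members' count were array weights (1 higher, 3 lower; 542 and 710 genes) and the dimmer pair left out (1 higher, 1 lower; 717 and 891 genes). FOS, JUND and IER2 were positive and FOSL2, JUNB, EGR1 and IER3 negative in all 22 alternatives for single genes. For FOSL2 these values do not all come from the same probe set, because its brightest one changed with the setting. The main comparison gave FOSL2 -1.32. A different probe set gave -0.65 with the smaller pseudocount and -0.30 with the dimmer pair left out. Another FOSL2 probe set was positive in the main comparison (0.40), so the steady sign does not hold for each of its probe sets. The dimmer pair alone is not among the alternatives. On it JUND was -0.12, IER2 -0.36 and FOSL2 probe set 228188_at 0.22, while FOS, JUNB, EGR1 and IER3 kept their sign. FOSL1 was 0.050 without scaling, 0.13 with array weights, 0.23 with the 18S control block, 0.079 with M5 replicates 2 and 3 averaged and 0.26 with the dimmer pair left out, with or without that averaging. Leaving out 1 array gave -0.34 to 0.46 for FOSL1, with 0.46 without SW480 replicate 1, 0.14 without M5 replicate 2 and 0.02 without M5 replicate 3, and -0.29 to 0.54 for JUN, with -0.29 without SW480 replicate 2 and -0.03 without SW480 replicate 3.

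Genes higher and lower were 6 and 3 without scaling, 5 and 4 with median centring, 21 and 13 without a filter, 8 and 5 with the filter of 60%, 0 and 0 without the intensity trend, 39 and 25 with the dim-array block, and 1 and 3 with M5 replicates 2 and 3 averaged. They were 16 and 11 with trimmed mean scaling and 9 and 5 with the mean over probe sets. Chosen after the data were seen, the dimmer pair left out with that averaging gave 118 and 177, and p adjusted over probe sets 8 and 6. Leaving out 1 array gave 0 to 102 genes higher and 2 to 150 lower, and no member. What causes these differences was not tested.

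Over all kept probe sets, arrays with equal replicate numbers 1, 2 and 3 deviated from their group means with low correlations of 0.11, 0.02 and 0.07. The replicate 1 arrays were nonetheless alike on bright probe sets. On the 5462 brightest, SW480 replicate 1 correlated at r = 0.952 with M5 replicate 1. With SW480 replicates 2 and 3 its r was 0.909 and 0.913. The replicate block gave 14 genes higher, 12 lower and 0 members in either direction. Under it the limma adjusted p was 0.0695 for ATF3, which lost its call, and 0.0411 for KLF2, which gained one. Without detection calls, low signals such as those of FOSB give no firm fold.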
